A study of Mus musculus with 36 samples.

Results

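The genes described here are 10 genes of the integrated stress response and the unfolded protein response, chosen by name from 37561 gene entries measured in mouse stem cell cultures: Atf4, Atf3, Ddit3, Trib3, Asns, Chac1, Sesn2, Ddit4, Hspa5 and Xbp1. All 10 matched exactly 1 entry in each of the 6 deposited tables. No measured value entered the rule that named them, but earlier results of these data were already known. Counts over these genes are therefore not independent support. The study compared AB2.2 mouse embryonic stem cells with the gene of the long noncoding RNA LncCPR knocked out with control AB2.2 cells during differentiation. LncCPR knockout cells at day 0, undifferentiated, and knockout embryoid bodies at days 3, 5, 8, 10 and 12 after hanging drops were set up were each compared with control AB2.2 cells of the same day; day 0 cells are kept undifferentiated with the cytokine LIF, which is left out for differentiation. Each of the 12 groups had 3 libraries. The knockout was made with Cas9 and a pair of guide constructs on either side of the gene, followed by sorting of single cells, and the number of clones behind the 18 knockout libraries is not stated. The tables do not name LncCPR, and the deletion was therefore not checked from its RNA.

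In the integrated stress response, kinases that sense amino acid shortage, unfolded protein, heme deficiency or double-stranded RNA phosphorylate the translation factor eIF2. Most protein synthesis then slows while translation of the transcription factor ATF4 increases, and ATF4 switches on genes for amino acid supply, redox balance and, when stress lasts, cell death. The unfolded protein response adds further sensors in the endoplasmic reticulum (ER), IRE1 and ATF6, which raise ER chaperones through spliced XBP1 and cleaved ATF6. Because ATF4 and XBP1 are controlled at translation and splicing, the level of Atf4 or Xbp1 RNA per gene is not a readout of how active either protein is. Embryonic stem cells and secretory or yolk sac cells rely on these pathways for rapid growth and for protein export.

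The response elements of these pathways are short DNA motifs, shown here because they mark which of the 10 genes carry a recognised site close to the start of transcription. In the 250 bases before the RefSeq start (build GRCm38.p6), searched on both strands in 32851 promoter windows, the C/EBP-ATF response element core TGATGNAA lay in 3.45% of windows and in those of Asns, Atf3 and Chac1. The ER stress response element, CCAAT and CCACG separated by 9 bases, lay in 0.113% of windows and in that of Hspa5. The cAMP response element TGACGTCA lay in 1.55% of windows and in none of the 10. A match describes the letters of the window and is not a binding site shown by these data. The sequences run 5′ to 3′ along the strand of the gene, with the motif in capitals; the element of Atf3 and Chac1 is on the opposite strand and appears as its reverse complement. Annotated exons overlap all 4 windows. Those of Atf3 and Chac1 are printed up to the first exon base within the window, 7 and 13 bases short of its end. Asns and Hspa5, whose element does not lie wholly before every exon in the window, are shown as 30 bases around it. The Atf3 window belongs to a start inside the annotated gene, which spans 191170296 to 191218039 on the minus strand. It is therefore not upstream of the whole gene.
Asns, chr6:7693214-7693243, minus strand: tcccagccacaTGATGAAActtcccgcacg
Hspa5, chr2:34772020-34772049, plus strand: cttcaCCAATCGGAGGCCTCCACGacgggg
Chac1, chr2:119350992-119351228, plus strand: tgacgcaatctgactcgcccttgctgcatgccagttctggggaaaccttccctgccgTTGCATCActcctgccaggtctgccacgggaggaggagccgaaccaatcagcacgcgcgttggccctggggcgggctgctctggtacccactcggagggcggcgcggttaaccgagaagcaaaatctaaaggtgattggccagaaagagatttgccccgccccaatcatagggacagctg
Atf3, chr1:191183341-191183583, minus strand: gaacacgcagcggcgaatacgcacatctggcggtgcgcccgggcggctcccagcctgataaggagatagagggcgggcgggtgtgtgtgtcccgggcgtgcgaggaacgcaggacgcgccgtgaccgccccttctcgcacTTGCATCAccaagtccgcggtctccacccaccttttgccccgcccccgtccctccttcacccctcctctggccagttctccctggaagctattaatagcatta

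All levels are FPKM, fragments scaled to transcript length and library total. Libraries summed to 294740 to 403675 FPKM. The top 10 genes of a library took 11.3% to 30.3% of that sum, and more than 20% in 8 libraries. Control replicate 1 at day 3 stands apart: it had the lowest sum of all libraries and the lowest value of its group in 10 of 10 stress genes. Control replicate 3 at day 10 and knockout replicate 3 at day 0 were each lowest of their group in 8 of 10. FPKM changes in every gene of a library when a few transcripts take more of the total, and the median knockout over control log2 change of all genes tested was -0.01, 0.15, 0.13, 0.09, 0.17 and 0.05 on the 6 days in order. Each comparison was therefore also made after rescaling, which divides every library by the median ratio of its genes to their geometric mean over the libraries of that day. Pluripotency markers were abundant in both lines at day 0, with a summed level of 2358 to 2481 FPKM in knockout libraries and 2349 to 2408 FPKM in control libraries, although Esrrb is listed at 0 in all 6 libraries. The embryoid bodies are mixtures, so that fewer cells of a type and less RNA per cell cannot be told apart.

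Deletion of LncCPR went with changes in 7 of the 10 stress genes on at least 1 day, against 35.4% of the 14459 genes tested on any day, and the days differed in direction. Of 59 combinations of gene and day with enough signal to test, 11 passed (limma, adjusted p under 0.05, adjusted over all genes of the day), 9 higher and 2 lower in knockout cells. At day 0, Atf3 and Ddit4 were lower and Xbp1 was higher, 3 of 10 genes against 14.5% of all genes tested (6.49% higher and 8.03% lower). At day 3 only Chac1 was higher, 1 of 10 against 1.75% of all genes tested (1.09% higher and 0.668% lower). At day 5 Atf3, Atf4 and Sesn2 were higher, 3 of 9 against 10.4% of all genes tested (7.07% higher and 3.32% lower); Chac1, with a mean under 1 FPKM, was not tested. At day 8, 0 of 10 passed against 3.28% of all genes tested (1.28% higher and 2% lower). At day 10 Asns, Ddit4 and Atf4 were higher, 3 of 10 against 20.2% of all genes tested (15% higher and 5.12% lower). At day 12 Ddit4 was higher, 1 of 10 against 6.71% of all genes tested (3.22% higher and 3.48% lower). Ddit3, Trib3 and Hspa5 did not pass on any day.

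Rescaling moved the balance of calls. On day 0 the count after rescaling was 0 higher and 2 lower, against 14.9% of all genes (5.91% higher and 8.99% lower). On day 3 the count after rescaling was 0, against 4.39% of all genes (1.8% higher and 2.59% lower). On day 5 the count after rescaling was 2 higher and 0 lower, against 12.1% of all genes (5.09% higher and 7% lower). On day 8 the count after rescaling was 0 higher and 1 lower, against 5.87% of all genes (1.8% higher and 4.07% lower). On day 10 the count after rescaling was 3 higher and 4 lower, against 20.9% of all genes (8.53% higher and 12.4% lower). On day 12 the count after rescaling was 0, against 7.57% of all genes (2.24% higher and 5.33% lower).

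**Figure D1:**
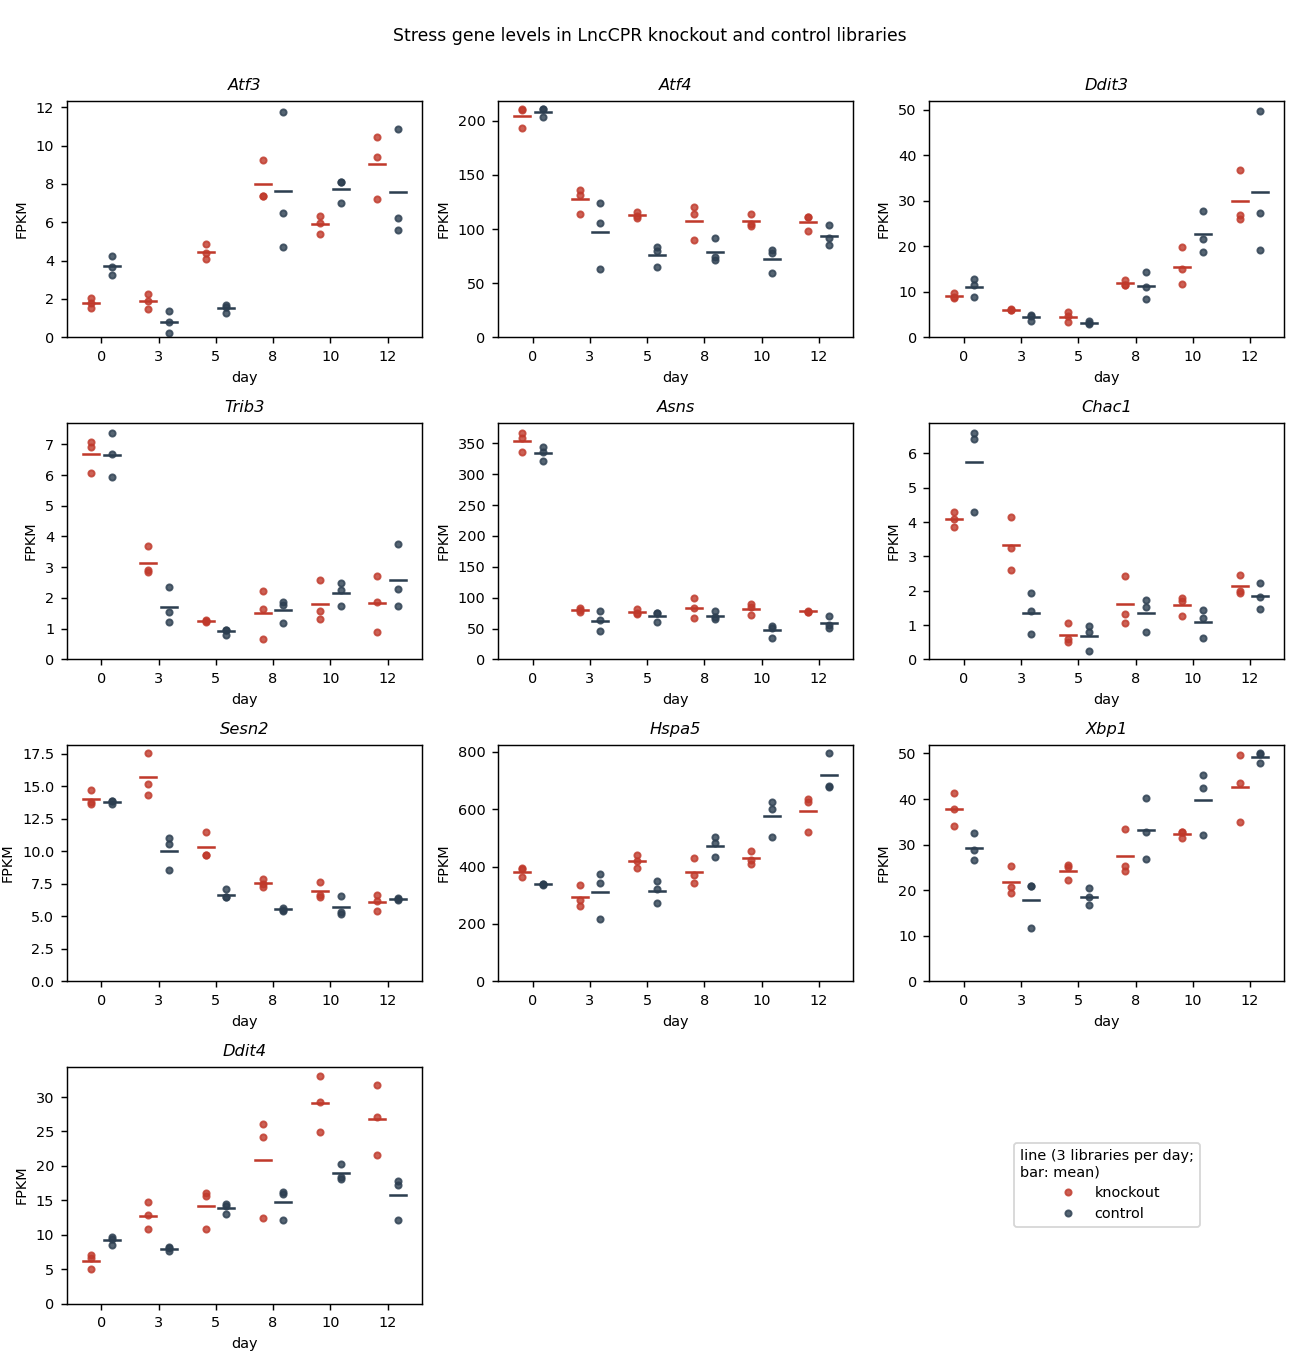
FPKM of each stress gene (vertical axes, linear from 0) by day, knockout libraries in red left of control libraries in dark blue; each dot is 1 library and each bar the mean of 3. Atf3 is lower in knockout cells at day 0 and higher at day 5, Asns is highest at day 0 in both lines, and Hspa5 is lower in all knockout libraries from day 8 on.

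Atf4 encodes the transcription factor at the centre of the integrated stress response. Its RNA was highest at day 0 in both lines, with 210, 210 and 194 FPKM in knockout cells and 204, 211 and 210 FPKM in control cells. At day 5 it measured 112, 111 and 116 FPKM in knockout embryoid bodies, against 65.4, 79.9 and 83.4 FPKM in controls. All 3 knockout libraries lay above all 3 control libraries, and the log2 change of 0.56 (SE 0.13) passed with an adjusted p of 0.0164 in limma. At day 10 the values were 105, 113 and 103 FPKM in knockout and 77.5, 80.5 and 59.5 FPKM in control, again with no overlap (log2 change 0.57, SE 0.15, limma adjusted p = 0.0175). Both calls held after rescaling, at log2 changes of 0.42 and 0.36. The day 5 call was lost without knockout replicate 1 (limma adjusted p = 0.0504) or knockout replicate 3 (0.0637), and the day 10 call without knockout replicate 2 (0.0694), with log2 changes of 0.57, 0.55 and 0.52. From day 3 to day 12, Atf4 in knockout embryoid bodies had group means between 106 and 127 FPKM, whereas the control means lay between 72.5 and 97.6 FPKM. At days 3, 8 and 12 the libraries of the lines overlapped. The changes of 0.43, 0.44 and 0.19 on those days did not pass (limma adjusted p = 0.658, 0.194 and 0.328). The control libraries of day 3 held 62.9, 105 and 124 FPKM.

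Atf3, an immediate stress-induced transcription factor and a target of ATF4, changed direction between days. At day 0 it stood at 2.06, 1.79 and 1.51 FPKM in knockout cells, against 3.69, 4.26 and 3.25 FPKM in control cells, so every knockout library was lower. The log2 change was -0.76 (SE 0.13, limma adjusted p = 0.0102). At day 5 it reached 4.38, 4.87 and 4.07 FPKM in knockout embryoid bodies, while controls held 1.70, 1.59 and 1.25 FPKM. All knockout libraries were above all controls, by a log2 change of 1.11 (SE 0.13, limma adjusted p = 0.000422), the largest of the 59 tested. Both calls held without any 1 of the 6 libraries of the day and after rescaling.

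At day 3, Atf3 measured 2.28, 1.91 and 1.47 FPKM in knockout and 0.245, 0.822 and 1.4 FPKM in control. The libraries did not overlap, but the lowest knockout and the highest control value nearly met and the change did not pass (0.71, SE 0.24, limma adjusted p = 0.176); without control replicate 3 it passed at 0.93 (adjusted p = 0.0298). At day 8 the control libraries spread from 4.69 to 11.8 FPKM around knockout values of 7.36 to 9.23 FPKM. At day 10 the order was the reverse of day 5, with 6.31, 5.39 and 5.98 FPKM in knockout and 8.11, 8.08 and 7.01 FPKM in control. That difference did not pass as deposited (-0.34, SE 0.14, limma adjusted p = 0.108) and passed after rescaling (-0.52, adjusted p = 0.00952). Atf3 is on chromosome 1, whose 719 tested genes were shifted by -0.30 at day 10 relative to the other chromosomes, and it did not pass there when each library was centred on the median of each chromosome. The shift of that chromosome was -0.27, -0.29 and -0.28 at days 5, 8 and 12, and -0.05 and -0.09 at days 0 and 3.

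Ddit3 encodes CHOP, the ATF4-induced factor that promotes cell death under lasting ER stress. Its level was lowest at day 5, at 4.47 ± 1.09 FPKM in knockout and 3.24 ± 0.345 FPKM in control (SD, n = 3 each), and highest at day 12, at 29.8 ± 5.99 and 32.0 ± 15.8 FPKM in the same order. The control line at day 12 held both the lowest and the highest library, with 19.1, 27.2 and 49.6 FPKM, around 36.7, 26.0 and 26.8 FPKM in knockout. At day 10 knockout libraries had 15.0, 11.8 and 19.9 FPKM against 18.7, 27.7 and 21.5 FPKM in controls, overlapping in 1 library of each line. The change of -0.53 (SE 0.19) had a limma adjusted p of 0.0624 as deposited and 0.0347 after rescaling (-0.73). It also passed without knockout replicate 3 (-0.71, adjusted p = 0.0181) or control replicate 1 (-0.65, adjusted p = 0.0368).

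Trib3, a pseudokinase induced by CHOP and ATF4 that restrains ATF4 activity, was highest at day 0 in both lines, with 6.69 ± 0.546 FPKM in knockout and 6.67 ± 0.713 FPKM in control (SD, n = 3 each). By day 5 it stood at 1.25, 1.22 and 1.29 FPKM in knockout libraries and 0.968, 0.800 and 0.960 FPKM in control libraries. At day 3 it measured 3.70, 2.91 and 2.83 FPKM in knockout, against 1.2, 1.54 and 2.35 FPKM in control, with no overlap. Neither difference passed: the log2 change was 0.24 (SE 0.14, limma adjusted p = 0.289) at day 5 and 0.64 (SE 0.23, limma adjusted p = 0.212) at day 3. At day 3, 6 of the 10 genes, Atf3, Ddit3, Trib3, Chac1, Sesn2 and Ddit4, were above every control library in every knockout library, a pattern seen in either direction in 17.5% of all genes that day. The same count at day 5 was 6 of 9 tested genes against 33.9%.

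**Figure D2:**
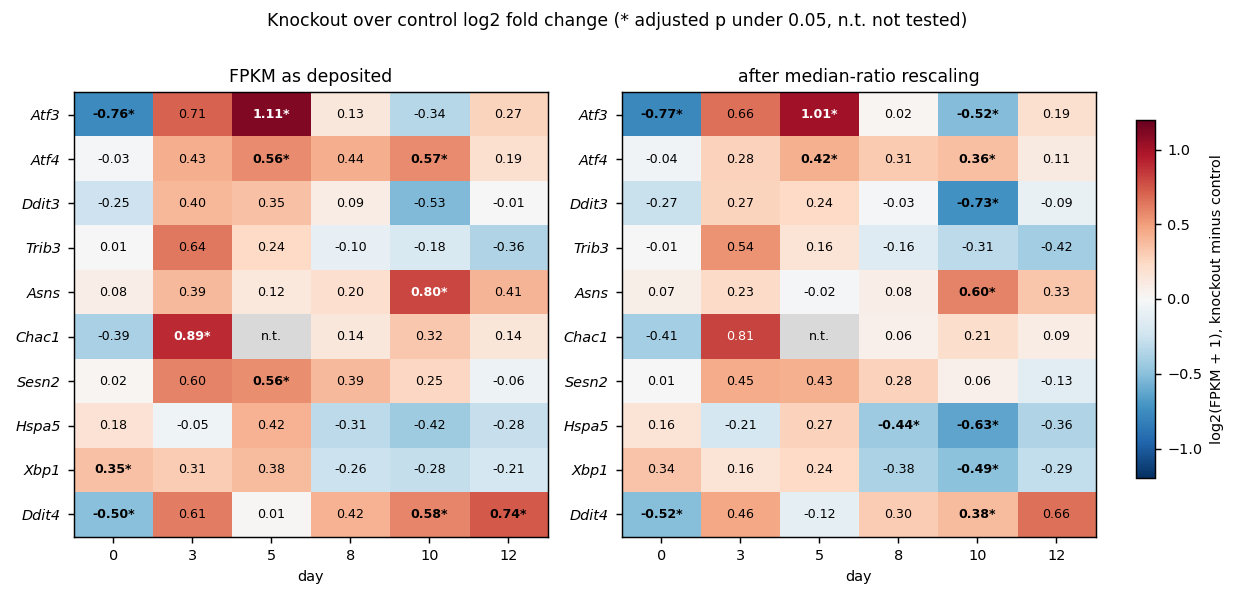
Knockout over control log2 fold change of each stress gene (rows) by day (columns), on the log2(FPKM + 1) scale, from deposited values on the left and after median-ratio rescaling on the right; asterisks mark limma adjusted p under 0.05 and n.t. not tested. Red cells predominate at days 3 and 5, and at day 10 Atf4, Asns and Ddit4 are red while Atf3, Ddit3, Hspa5 and Xbp1 are blue in both panels, with the blue ones marked only on the right.

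Asns, which makes asparagine and is a standard readout of ATF4, was highest at day 0 in both lines. It measured 359, 367 and 336 FPKM in knockout and 345, 336 and 322 FPKM in control stem cells. At day 3 it stood at 77.2, 83.2 and 80.3 FPKM in knockout and 46.0, 63.7 and 77.6 FPKM in control embryoid bodies, 4.41-fold and 5.35-fold below the day 0 mean. The median over all genes moved by -0.07 in the knockout line and -0.22 in the control line (log2) between these tables, which may have been normalized separately, so levels across days are described without a test. At day 10 Asns stood at 71.5, 84.6 and 89.1 FPKM in knockout, against 54.7, 51.5 and 34.8 FPKM in control. No library overlapped, and the log2 change of 0.80 (SE 0.17) passed with a limma adjusted p of 0.00669 and held without any 1 library and after rescaling (0.60). At day 12 the lines were also apart, with 77.0, 77.1 and 78.9 FPKM in knockout and 55.2, 71.1 and 50.2 FPKM in control, but the change did not pass (0.41, SE 0.13, limma adjusted p = 0.0933); without control replicate 2 it did (0.55, adjusted p = 0.0287).

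Asns lies on chromosome 6, whose tested genes were shifted by -0.25 at day 0 and -0.26 at day 3 relative to the other chromosomes, and by between -0.01 and 0.01 from day 5 on. Relative to that chromosome, Asns was higher in knockout cells at both early days: by 0.34 at day 0 (limma adjusted p = 0.0075) and by 0.50 at day 3 (adjusted p = 0.0252). As deposited, its log2 change was 0.08 (SE 0.06) at day 0 and 0.39 (SE 0.27) at day 3, and neither passed. The part of that shift in the Asns values was otherwise not tested.

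Chac1 encodes a glutathione-degrading enzyme of the ATF4 and CHOP branch. At day 3 it stood at 3.25, 2.60 and 4.13 FPKM in knockout and 0.732, 1.92 and 1.42 FPKM in control embryoid bodies. Every knockout library was above every control, and the log2 change of 0.89 (SE 0.24) was the one called at that day (limma adjusted p = 0.0414). The call was lost after rescaling (0.81, adjusted p = 0.0699) and without control replicate 1 (0.69, adjusted p = 0.129), knockout replicate 1 (0.90, adjusted p = 0.0925) or knockout replicate 3 (0.76, adjusted p = 0.218). Centring each library on the median of each chromosome also lost the call. At day 0 the order was the other way, with 4.10, 4.31 and 3.87 FPKM in knockout and 6.58, 4.28 and 6.43 FPKM in control. Control replicate 2 lay among the knockout libraries; the change of -0.39 (SE 0.15) had a limma adjusted p of 0.121 with it and 0.0325 without it (-0.56). Chac1 was below 2.5 FPKM in all libraries from day 5 on.

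Sesn2 encodes sestrin 2, a leucine sensor that restrains the growth kinase mTORC1 and is induced by ATF4 and p53. At day 0 the lines were alike in level, with 14.7, 13.8 and 13.6 FPKM in knockout and 13.9, 13.6 and 13.9 FPKM in control (log2 change 0.02, 95% interval -0.13 to 0.18). At day 3 it measured 14.3, 17.6 and 15.1 FPKM in knockout, against 8.56, 10.6 and 11 FPKM in control. At day 5 it measured 9.73, 9.72 and 11.5 FPKM in knockout, against 7.08, 6.47 and 6.49 FPKM in control. Knockout libraries were above all controls on both days, and the day 5 change of 0.56 (SE 0.11) passed with a limma adjusted p of 0.0115. That call moved to an adjusted p of 0.0507 after rescaling (0.43), and to 0.0507 without knockout replicate 3 (0.48).

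The day 3 change of Sesn2, 0.60 (SE 0.23), did not pass (limma adjusted p = 0.281). At day 8 the levels of 7.23, 7.88 and 7.50 FPKM in knockout and 5.52, 5.42 and 5.66 FPKM in control did not overlap, with a change of 0.39 (SE 0.14, limma adjusted p = 0.187). By day 12 the lines overlapped, at 6.08 ± 0.640 FPKM in knockout and 6.34 ± 0.0604 FPKM in control (SD, n = 3 each). Beside Sesn2, 7 of 10 listed p53 targets were higher in knockout embryoid bodies at day 5, against 7.07% of all genes, and 4 of 10 at day 8, against 1.28%, among them Ccng1 (97.2 ± 1.13 FPKM in knockout and 62.6 ± 3.74 FPKM in control at day 5; SD, n = 3 each); after rescaling 3 passed at day 5, against 5.09%, and 4 at day 8, against 1.8%. The part of p53 in the Sesn2 values was not tested.

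Ddit4 encodes REDD1, an inhibitor of mTORC1 induced by ATF4, hypoxia and glucocorticoids. It differed in opposite directions at the start and the end of the series. At day 0 it stood at 5.06, 6.67 and 7.03 FPKM in knockout and 9.67, 8.53 and 9.42 FPKM in control, a log2 change of -0.50 (SE 0.12, limma adjusted p = 0.0328). At day 10 it stood at 25.0, 33.0 and 29.3 FPKM in knockout and 18.5, 20.3 and 18.2 FPKM in control, a change of 0.58 (SE 0.14, limma adjusted p = 0.0127). At day 12 the values were 31.8, 21.5 and 27.2 FPKM in knockout and 12.1, 17.3 and 17.8 FPKM in control, a change of 0.74 (SE 0.18, limma adjusted p = 0.0415). No library of the lines overlapped on these 3 days.

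The Ddit4 calls at days 0 and 10 held after rescaling, and that at day 12 did not (0.66, limma adjusted p = 0.0772). At day 0 the call was lost when any library but knockout replicate 3 was left out, with log2 changes from -0.55 to -0.38 and adjusted p from 0.0604 to 0.0919. At day 10 it was lost without knockout replicate 2 (0.49, adjusted p = 0.0717). At day 12 it was lost without knockout replicate 1 or 3 or control replicate 1 or 2, with log2 changes from 0.57 to 0.81 and adjusted p from 0.0611 to 0.125. At day 8, knockout replicates 1 and 3 held 26.1 and 24.2 FPKM and replicate 2 held 12.4 FPKM, against 15.9, 12.1 and 16.3 FPKM in control; replicates 1 and 3 are also the knockout libraries of that day with over 20% of FPKM in 10 genes. Hypoxia genes other than Ddit4 were 6 of 12 lower in knockout cells at day 0, with 0 higher, against 8.03% of all genes called lower, led by Ankrd37 (4.74 ± 1.09 FPKM in knockout and 10.8 ± 1.42 FPKM in control; SD, n = 3 each). At day 10, 2 of 13 were higher and 0 lower as deposited, against 15% and 5.12% of all genes. After rescaling 0 were higher and 2 lower, against 8.53% and 12.4%. The calls in this list were thus near the shares of all genes at day 10.

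Hspa5 encodes BiP, the main ER chaperone and the gatekeeper of the unfolded protein response. By group means it was the most abundant of the 10 genes on every day in both lines. In control cells at day 0 its mean of 338 FPKM was close to the 334 FPKM of Asns. Control replicate 1 of that day had more Asns (345 FPKM) than Hspa5 (340 FPKM). At day 0 Hspa5 stood at 394, 391 and 362 FPKM in knockout and 340, 340 and 334 FPKM in control. At day 5 it stood at 441, 394 and 418 FPKM in knockout, against 271, 350 and 321 FPKM in control. Knockout libraries were the higher on both days without overlap, with log2 changes of 0.18 (SE 0.05, limma adjusted p = 0.0623) and 0.42 (SE 0.15, limma adjusted p = 0.101) that did not pass; without knockout replicate 3 the day 0 change of 0.22 did (adjusted p = 0.047).

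From day 8 the order turned. Hspa5 measured 372, 431 and 344 FPKM in knockout and 504, 481 and 433 FPKM in control at day 8. At day 10 it measured 454, 410 and 422 FPKM in knockout and 625, 602 and 504 FPKM in control, and at day 12 625, 634 and 520 FPKM in knockout and 795, 677 and 680 FPKM in control. All knockout libraries were below all controls on these 3 days, a pattern in either direction shared by 22.7%, 40.4% and 30% of all genes. As deposited the changes of -0.31, -0.42 and -0.28 did not pass (limma adjusted p = 0.365, 0.0736 and 0.24). After rescaling, days 8 and 10 passed at -0.44 (adjusted p = 0.0309) and -0.63 (adjusted p = 0.00238), and day 12 did not (-0.36, adjusted p = 0.0539). Without control replicate 3, the library with the most FPKM in 10 genes, the deposited day 10 values gave -0.52 (adjusted p = 0.0254).

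Xbp1, whose RNA is spliced by IRE1 into the form that encodes the active factor, had a knockout mean below the control mean at days 8, 10 and 12. The tables give 1 value per gene, so spliced and unspliced Xbp1 were not separated. At day 0 it measured 41.4, 37.8 and 34.1 FPKM in knockout, above 28.8, 26.6 and 32.6 FPKM in control, and the log2 change of 0.35 (SE 0.10) passed (limma adjusted p = 0.0455). The call was lost after rescaling (0.34, adjusted p = 0.0503) and without knockout replicate 1 or 2 or control replicate 1 or 2, with log2 changes from 0.29 to 0.35 and adjusted p from 0.103 to 0.129. Centring each library on the median of each chromosome also lost the call. At day 5 it measured 22.3, 25.2 and 25.5 FPKM in knockout and 16.7, 18.5 and 20.4 FPKM in control (0.38, SE 0.11, limma adjusted p = 0.0634). At day 10 it measured 32.7, 32.7 and 31.4 FPKM in knockout and 42.4, 45.3 and 32.0 FPKM in control. Control replicate 3 met the knockout libraries there; the change was -0.28 (SE 0.15, limma adjusted p = 0.183) as deposited, -0.43 (adjusted p = 0.0219) without that library and -0.49 (adjusted p = 0.00345) after rescaling.

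**Figure D3:**
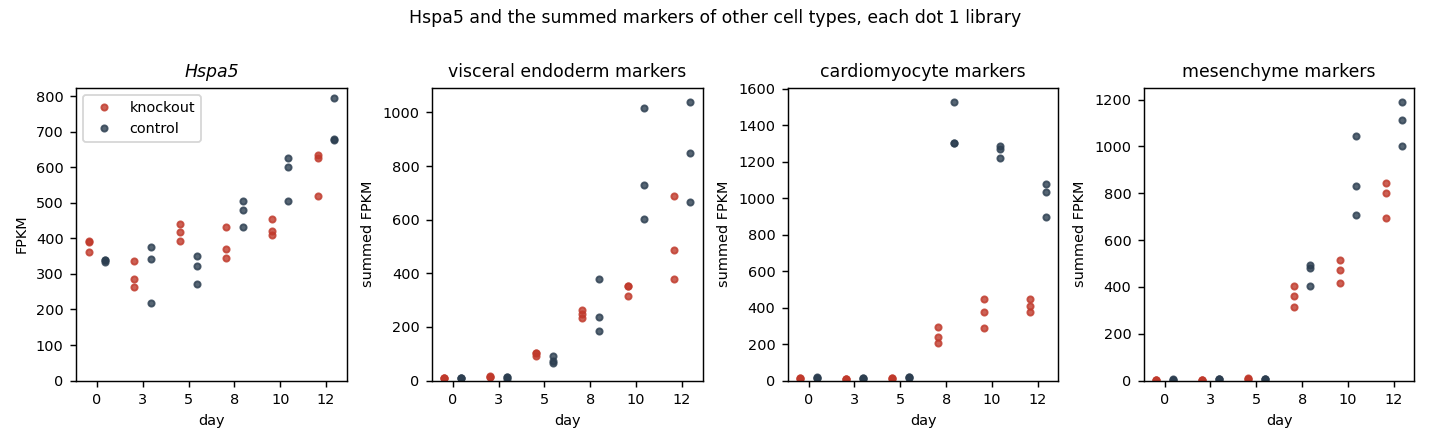
FPKM of Hspa5 and the summed FPKM of marker lists of 3 other cell types (vertical axes, linear from 0) by day, knockout libraries in red left of control libraries in dark blue, each dot 1 library. At day 10 Hspa5 and all 3 marker sums are lower in every knockout library than in every control library.

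Markers of other cell types were summed per library beside these results. At day 10, visceral endoderm markers, which mark a secretory tissue, summed to 316 to 353 FPKM in knockout and 603 to 1016 FPKM in control libraries, and 7 of 13 entries tested were lower, among them Afp (80.0 ± 17.5 FPKM in knockout and 287 ± 57.9 FPKM in control; SD, n = 3 each) and Trf (3.06 ± 1.60 and 20.7 ± 6.20 FPKM in the same order). Mesenchyme markers, including the secreted collagens, summed to 416 to 517 FPKM in knockout and 709 to 1045 FPKM in control, with 7 of 7 lower. Cardiomyocyte markers summed to 287 to 445 FPKM in knockout and 1222 to 1287 FPKM in control, with 9 of 10 lower; the exception, Ttn, is listed at 0 in all 3 control libraries. Pluripotency markers summed to 181 to 216 FPKM in knockout and 62.2 to 102 FPKM in control, with 7 of 8 higher. Of all genes, 15% were called higher and 5.12% lower that day. After rescaling, 5 pluripotency markers were higher, against 8.53% of all genes. Lower after rescaling were 8 visceral endoderm, 7 mesenchyme and 9 cardiomyocyte markers, against 12.4% of all genes. No marker of these lists was at 0 in all 6 libraries of day 10. The part of cell mixture in the values of Hspa5, Xbp1, Asns or Atf4 was not tested.

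At day 5, where Atf3, Atf4 and Sesn2 were called, pluripotency markers summed to 936 to 1051 FPKM in knockout and 440 to 605 FPKM in control. Of these, 4 of 7 were higher, against 7.07% of all genes, and 4 after rescaling, against 5.09%. Neural markers summed to 33.5 to 41.1 FPKM in knockout and 13.9 to 15.3 FPKM in control that day. Of 7 listed, 5 were matched and only 1 had enough signal to test, which was higher. Neurog1 was at 0 in all 6 libraries. Endothelial and blood markers, 8 listed, summed to 4.70 to 6.59 FPKM in knockout and 22.6 to 26.4 FPKM in control. Only 2 of them were tested and 1 was lower, so neither sum describes a whole list. Of all genes, 7.07% were called higher and 3.32% lower that day. At day 12, where Ddit4 was called, cardiomyocyte markers summed to 376 to 447 FPKM in knockout and 898 to 1080 FPKM in control, with 9 of 10 lower. Mesenchyme markers summed to 693 to 842 FPKM in knockout and 1004 to 1191 FPKM in control, with 5 of 7 lower. The share of all genes called lower was 3.48%. After rescaling 9 cardiomyocyte and 6 mesenchyme markers were lower, against 5.33%. Their part in the calls of these days was not tested.

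At day 8, cardiomyocyte markers summed to 204 to 293 FPKM in knockout and 1302 to 1529 FPKM in control. Of these, 8 of 10 were lower, against 2% of all genes, and 9 after rescaling, against 4.07%. Visceral endoderm markers overlapped at 234 to 263 FPKM in knockout and 184 to 378 FPKM in control, with 0 of 13 called either way. At day 0, neural markers, 5 of 7 matched, summed to 12.1 to 12.7 FPKM in knockout and 19.5 to 20.8 FPKM in control. Of these, 3 of 3 tested were lower, against 8.03% of all genes. Immediate early genes, the class to which Atf3 belongs, were 3 of 7 lower and 1 higher at day 0, against 8.03% and 6.49% of all genes, with Fos at 5.53 ± 0.726 FPKM in knockout and 10.3 ± 0.641 FPKM in control (SD, n = 3 each) and Egr1, the higher one, at 2.92 ± 0.274 and 1.64 ± 0.452 FPKM in the same order. At day 5, when Atf3 was higher, 1 of 7 was higher and 1 lower, against 7.07% and 3.32% of all genes.

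Whether a gene's response to the knockout depended on the day was tested with limma's F test on the 36 libraries together. It passed for 4 of the 10 genes, against 17.1% of the 13022 genes tested: Atf3 (adjusted p = 0.000476), Sesn2 (0.00402), Ddit4 (0.00756) and Hspa5 (0.0259). For Atf3 the effect ran from -0.76 at day 0 to 1.11 at day 5, for Sesn2 from -0.06 at day 12 to 0.60 at day 3, for Ddit4 from -0.50 at day 0 to 0.74 at day 12, and for Hspa5 from -0.42 at day 10 to 0.42 at day 5. Chac1 (adjusted p = 0.0507), Xbp1 (0.0618), Asns (0.148), Trib3 (0.17), Ddit3 (0.186) and Atf4 (0.257) did not pass. After rescaling 8 genes passed, all but Ddit3 and Trib3, with Hspa5 at an adjusted p of 2.59e-08 and Xbp1 at 3.27e-05. Without the 8 libraries that held over 20% of FPKM in 10 genes, 7 passed.

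At day 10 the deposited values gave calls in 1 direction and the rescaled values in both. As deposited, 3 genes were called higher and 0 lower; after rescaling, the same 3 were higher and 4 were lower, Atf3, Ddit3, Hspa5 and Xbp1, 7 of 10 genes against 20.9% of all genes. Relative to the median of all genes, Asns was higher by 0.64, Ddit4 by 0.42 and Atf4 by 0.40, while Ddit3 was lower at -0.69, Hspa5 at -0.59, Atf3 at -0.51 and Xbp1 at -0.45 (log2). All genes showed the same tilt towards lower calls, with 1946 called higher and 663 lower as deposited and 1102 higher and 1605 lower after rescaling.

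The other genes of these pathways were counted by list. The ER chaperones, 15 of 16 tested, had 4 higher and 0 lower in knockout embryoid bodies at day 5, against 7.07% and 3.32% of all genes (list median 0.35, all genes 0.13): Manf, Calr, Sdf2l1 and Creld2. Manf, a secreted ER stress protein, stood at 97.3 ± 10.7 FPKM in knockout and 60.7 ± 9.07 FPKM in control, and Calr, the calcium-binding chaperone calreticulin, at 443 ± 32.6 and 301 ± 37.1 FPKM in the same order (SD, n = 3 each). At day 10 the list had 0 higher and 2 lower (median -0.21, all genes 0.17), against 15% and 5.12% of all genes, and 0 higher and 9 lower after rescaling, against 8.53% and 12.4%. The 2 were Pdia3, a disulfide isomerase, at 115 ± 8.92 FPKM in knockout and 157 ± 6.25 FPKM in control, and Creld2 at 20.6 ± 0.291 and 28.4 ± 3.07 FPKM in the same order (SD, n = 3 each). At day 12 Creld2 and Sdf2l1 were lower, 2 of 15 against 3.48% of all genes, and after rescaling 3 were lower, against 5.33%. Among ER degradation genes, 3 of 8 were lower at day 0, 1 of 8 at day 8 and 1 of 9 at day 10. None was higher on these days, and the shares of all genes called lower were 8.03%, 2% and 5.12%. Herpud1, which helps remove misfolded protein, was lower in knockout cells at days 0, 8 and 10. It stood at 6.86 ± 0.817 FPKM in knockout and 12.4 ± 2.86 FPKM in control at day 10 (log2 change -0.75, limma adjusted p = 0.00937). Of 5 sensor and protease genes of the response, 1 was lower at day 0 and 1 at day 10, against 8.03% and 5.12% of all genes. The 1 at day 10 was Atf6, with 6.64 ± 0.858 FPKM in knockout and 9.76 ± 1.38 FPKM in control (SD, n = 3 each).

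**Figure D4:**
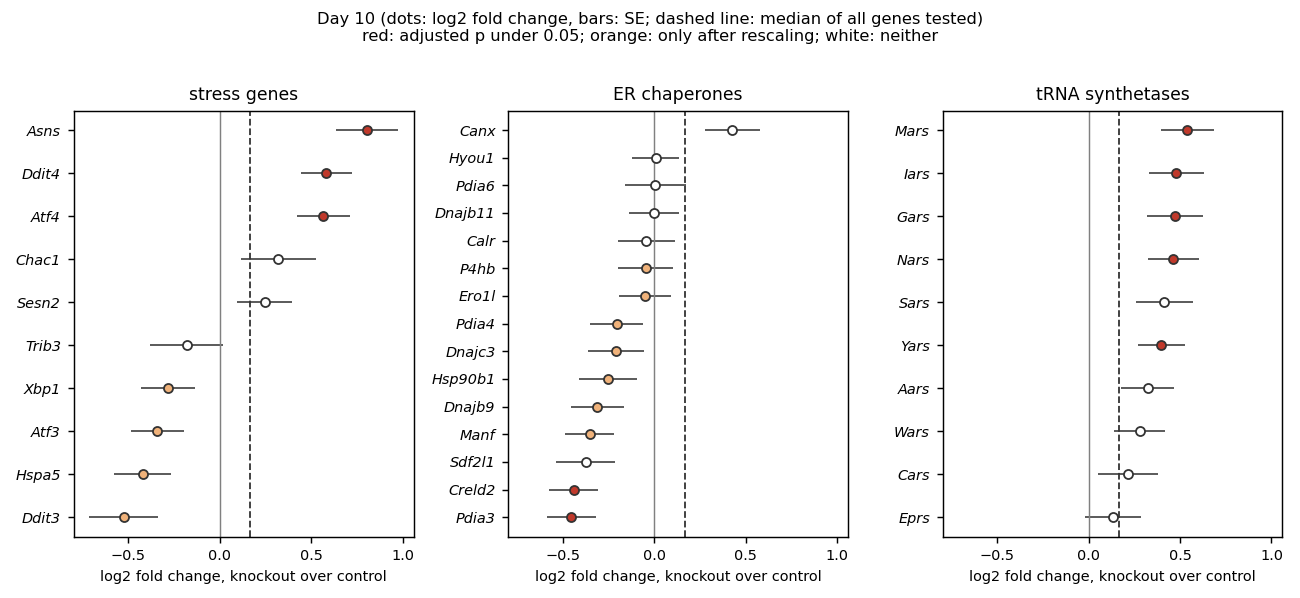
Log2 fold change at day 10, knockout over control on log2(FPKM + 1), with SE bars, for the 10 stress genes, 15 ER chaperones and 10 tRNA synthetases; the dashed line is the median of all genes, 0.17. Red dots passed as deposited, orange dots only after rescaling and white dots in neither: the marked chaperones lie left of the dashed line and the marked synthetases right of it.

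Among genes of amino acid synthesis and transport, 5 of 15 were higher and 0 lower at day 10 as deposited, against 15% and 5.12% of all genes. The list median of 0.21 was near the 0.17 of all genes, and after rescaling 2 were higher and 1 lower, against 8.53% and 12.4%. Slc7a3, a transporter of cationic amino acids, was higher at days 0, 5, 8 and 10, with 8.00 ± 0.651 FPKM in knockout and 3.83 ± 0.460 FPKM in control at day 10 (log2 change 0.90, limma adjusted p = 0.00174). Cth, which makes cysteine, stood at 9.59 ± 0.925 FPKM in knockout and 6.14 ± 0.870 FPKM in control at that day (SD, n = 3 each). Of the tRNA synthetases, a class of ATF4 targets, 5 of 10 were higher and 0 lower at day 10 (median 0.41), with Mars at 56.2 ± 4.46 FPKM in knockout and 38.6 ± 5.84 FPKM in control; the share of all genes called higher was 15%, and 2 synthetases passed after rescaling, against 8.53%. Of 9 translation control genes, 1 was higher and 0 lower at day 10, against 15% and 5.12% of all genes. After rescaling 1 was higher and 2 were lower, against 8.53% and 12.4%. The 1 higher as deposited was Eif2s1, the eIF2 subunit that the stress kinases phosphorylate. It stood at 28.1 ± 2.90 FPKM in knockout and 18.8 ± 2.5 FPKM in control (SD, n = 3 each). At day 0 the amino acid list had 3 higher and 5 lower, against 6.49% and 8.03% of all genes, with Slc7a5, the large neutral amino acid transporter, at 22.3 ± 1.19 FPKM in knockout and 34.7 ± 1.31 FPKM in control (SD, n = 3 each).

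Further ATF4 stress targets included few calls after day 0. At day 0, 4 of 9 were lower and 0 higher, against 8.03% and 6.49% of all genes: Vldlr, Stc2, Eif4ebp1 and Gpt2, with log2 changes from -0.67 to -0.27. Nupr1, a stress-induced chromatin protein, was higher in knockout embryoid bodies at day 3, with 7.81 ± 1.53 FPKM in knockout and 3.67 ± 0.797 FPKM in control. It was lower at day 10, with 2.51 ± 0.364 and 5.43 ± 2.03 FPKM, and at day 12, with 4.55 ± 0.379 and 11.5 ± 1.38 FPKM, knockout named before control (SD, n = 3 each). The day 12 change of -1.17 had a limma adjusted p of 0.00184, and the day 3 change of 0.91 one of 0.0297. The day 3 call of Nupr1 was lost after rescaling, which left 0 of the list higher, against 1.8% of all genes. Vldlr, a lipoprotein receptor, was lower at days 0 and 5.

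By group means, the day of the highest level was the same in both lines for 8 of the 10 genes. Asns, Trib3, Chac1 and Atf4 were highest at day 0. Ddit3, Hspa5 and Xbp1 were highest at day 12, and Ddit4 at day 10. Sesn2 was highest at day 3 in knockout and at day 0 in control, and Atf3 at day 12 in knockout and day 10 in control. The fold between highest and lowest day was smaller in the knockout line for Asns (4.6-fold, against 7.10-fold in control) and Chac1 (5.69-fold, against 8.62-fold). So it was for Ddit3 (6.67-fold, against 9.88-fold), Atf3 (5.05-fold, against 9.41-fold) and Trib3 (5.35-fold, against 7.33-fold). The same held for Atf4 (1.92-fold, against 2.87-fold), Xbp1 (1.96-fold, against 2.76-fold) and Hspa5 (2.01-fold, against 2.30-fold). It was larger for Ddit4 (4.65-fold, against 2.38-fold) and Sesn2 (2.58-fold, against 2.49-fold). This fold was not compared with that of all genes. The highest day stood clear of the next in all libraries of both lines for Asns, Atf4, Trib3 and Hspa5. Its libraries overlapped those of the next day for Chac1, Sesn2, Xbp1 and Ddit4 in knockout, for Ddit3 in control and for Atf3 in both lines, so those highest days are not separated beyond the spread.

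Over the 12 group means of log2(FPKM + 1), the genes most like Hspa5 were Hspa13 (Pearson r = 0.979) and Hsp90b1 (0.975), both of them ER chaperone genes, and those most like Trib3 were Ampd3 (0.968) and Nupr1 (0.962). Those most like Asns were Sod2 (0.982) and Zfp568 (0.98), like Xbp1 Sec23a (0.971) and Clptm1l (0.97), like Sesn2 Ccbl2 (0.986) and Mga (0.976), like Ddit3 Phka1 (0.98) and Fam190a (0.979), like Atf4 Arc (0.968) and Tfb1m (0.968), like Atf3 Pgm2 (0.95) and Glipr2 (0.949), like Chac1 Pstpip1 (0.941) and Dse (0.94), and like Ddit4 Prrc2b (0.957) and Inf2 (0.952). These are descriptions over 12 points that share a time course, taken as the 2 closest of 13022 genes.

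Within groups, the deviation of each of the 36 libraries from its group mean shows which genes vary together at fixed day and genotype. After rescaling, Ddit3 and Trib3 had a Pearson r of 0.57 (Spearman 0.47), Atf3 and Ddit3 one of 0.55 (Spearman 0.49), and Trib3 and Ddit4 one of 0.52 (Spearman 0.33). Without the 2 libraries farthest from the median of the first gene these were 0.41, 0.39 and 0.27. The lowest was Atf4 with Sesn2, at -0.51. The median over the 45 pairs was -0.03, and the median of Ddit3 with all other genes 0.00. Most pairs of these genes thus did not vary together within groups. The 95th percentile of r with all other genes was 0.35 for Ddit3, 0.38 for Trib3, 0.40 for Atf3 and 0.55 for Ddit4. The r of Trib3 with Ddit4 was above that percentile of Trib3 but below that of Ddit4. It therefore does not set this pair apart from Ddit4 with other genes. The points share a library and its depth, and the values are given without a test. Control replicate 3 at day 12, which held the highest Atf3, Ddit3 and Trib3 of its group, is the point farthest to the right in the plot of Ddit3 and Trib3.

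**Figure D5:**
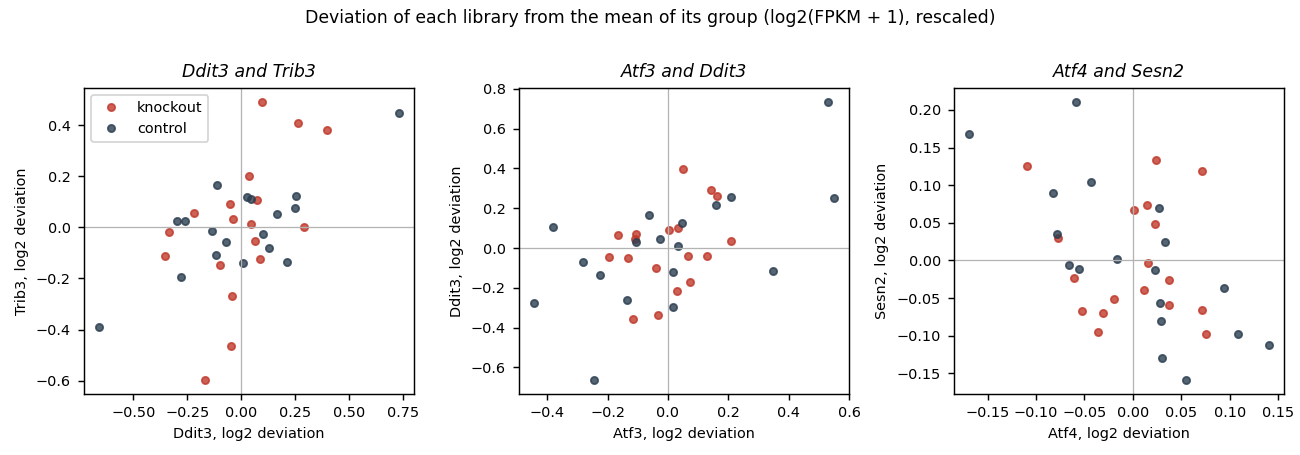
Deviation of each of the 36 libraries from the mean of its own group (log2(FPKM + 1), rescaled) for 3 pairs of stress genes, knockout libraries in red and control libraries in dark blue. The points of Ddit3 lean upwards with Trib3 (r = 0.57) and Atf3 (r = 0.55), and those of Atf4 and Sesn2 lean downwards (r = -0.51).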

How the data were processed

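RNA of 36 libraries (2 lines, 6 days, 3 libraries each) was analysed from 6 tables, 1 per day, of 37561 entries. The protocol and the design text name different HiSeq models, and which sequencer was used is not settled here. The deposited values are FPKM made by the authors; TopHat, Cufflinks and build mm9 are named in the submitters' processing notes, with versions, annotation and any scaling between libraries or tables not given in the sources used here. FPKM holds no counts, so absolute depth is unknown; relative depth spanned a 3.25-fold range. Cufflinks can list an abundant gene at 0.

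Within a day, entries averaging at least 1 FPKM over 6 libraries were tested on log2(FPKM + 1), a scale that understates changes of low genes. The difference of knockout from control was fitted in R 4.3.3 by limma 3.58.1 (trended eBayes, two-sided, Benjamini-Hochberg over all genes, threshold 0.05), checked on simulated data. A limma F test over 36 libraries compared days. The p-values measure the spread between libraries, which may be technical, since separate cultures are not stated; with 3 libraries a side, the smallest exact permutation p is 0.1. Alternatives were pseudocount 0.1, no filter, median-ratio rescaling over genes at 5 FPKM or more, chromosome centring, a replicate block, each library left out and, chosen after seeing the data, the libraries with over 20% of FPKM in 10 genes left out.

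The 10 genes and 18 lists were chosen with earlier results of these data known, so no count over them is independent support. Named from other lists were up to 4 genes past the threshold with the largest change per day; Esrrb and Ttn were added after their values were seen. For likeness the 2 genes with the highest r were named. Chromosomes came from GENCODE vM21 (GRCm38) by gene identifier, matching 32616 entries; promoters came from RefSeq GRCm38.p6, while the tables are mm9. Tables were handled with Python 3.11.15 and pandas 2.3.3, figures with matplotlib 3.10.9.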

Additional observations from a re-analysis of the deposited data

Results flagged for a closer look

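For 4 of the 10 stress genes the knockout effect differed between days by the limma F test over all 36 libraries: Atf3 (adjusted p = 0.000476), Sesn2 (0.00402), Ddit4 (0.00756) and Hspa5 (0.0259). Atf3 was lower in every knockout library at day 0 and higher in every knockout library at day 5. Sesn2 was higher in 3 of 3 knockout libraries at days 3, 5 and 8 and overlapped at days 0, 10 and 12. Ddit4 was lower in 3 of 3 knockout libraries at day 0 and higher in 3 of 3 at days 10 and 12. Hspa5 was higher in 3 of 3 at days 0 and 5 and lower in 3 of 3 at days 8, 10 and 12. Leaving out 1 replicate number in all groups left 2 of the 10 genes past the threshold each time.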

How the results depend on the processing

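Of the 11 calls, Atf3 at days 0 and 5 and Asns at day 10 kept their side of the threshold without any 1 library. Without the filter on low values, which adds many genes to the adjustment, the stress genes called were 0, 0, 1, 0, 0 and 0 from day 0 to day 12, and all genes called 774, 2, 424, 136, 775 and 218. Rescaling gave 0 stress genes at day 3 (524 of all genes), 1 at day 8 (745), 7 at day 10 and 0 at day 12, and 8 genes that differed between days. Chromosome centring gave 348 of all genes at day 3, and 1 stress gene at day 8, 6 at day 10 and 0 at day 12. At day 5 it gave 2. At days 0 and 3 its only stress gene called higher was Asns, so the Xbp1 and Chac1 calls of those days were lost. Pseudocount 0.1 gave 0 at day 3. Replicate numbers did not pair the libraries (correlations of same-numbered deviations from -0.12 to 0.27); with the replicate block 1 stress gene passed at day 0 (824 of all genes) and 0 at day 12 (464), with 342 of all genes at day 3. Leaving out the libraries with over 20% of FPKM in 10 genes gave 0 stress genes at day 3 (34 of all genes), where 1 control library remained and was assumed to vary like the others, 1 at day 8 (1326), where 1 knockout library remained, and 7 that differed between days.

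Leaving out 1 library gave 1 to 4 stress genes at day 0, 0 to 2 at day 3, 1 to 3 at day 5, 1 to 5 at day 10 and 0 to 1 at day 12, and all genes called ranged from 797 to 1041 at day 0, 186 to 332 at day 3, 833 to 996 at day 5, 190 to 665 at day 8, 1540 to 2574 at day 10 and 317 to 583 at day 12. The cause of these moves was not tested, except that fewer libraries enter. Small effects changed sign: rescaling gave Trib3 -0.0080 at day 0, Asns -0.017 and Ddit4 -0.12 at day 5 and Ddit3 -0.026 at day 8. Chromosome centring gave Trib3 -0.038 and Sesn2 -0.014 at day 0, Ddit4 -0.12 at day 5 and Ddit3 -0.013 at day 8. The libraries left out for their top 10 genes gave Ddit3 -0.14, Chac1 -0.045 and Ddit4 -0.15 at day 8. With 1 library left out the log2 change ranged at day 0 from -0.048 to 0.012 for Atf4, -0.063 to 0.071 for Trib3, -0.0074 to 0.044 for Sesn2. At day 3 it ranged from -0.29 to 0.098 for Hspa5 and at day 5 from -0.083 to 0.18 for Ddit4. At day 8 it ranged from -0.13 to 0.46 for Atf3, -0.089 to 0.27 for Ddit3, -0.30 to 0.17 for Trib3, -0.080 to 0.28 for Chac1, and at day 12 from -0.31 to 0.35 for Ddit3, -0.11 to 0.016 for Sesn2.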

Other observations

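Other stress programmes also differed. At day 0, the antioxidant genes Nqo1 and Hmox1 were lower in knockout stem cells, 2 of 6 tested with 0 higher, against 8.03% of all genes called lower, with Nqo1 at 11.7 ± 0.0664 FPKM in knockout and 29.2 ± 1.87 FPKM in control and Hmox1 at 21.6 ± 0.757 and 37.8 ± 2.82 FPKM in the same order (SD, n = 3 each). Cytosolic heat shock genes were 3 of 9 higher and 0 lower, against 6.49% and 8.03% of all genes, led by Hsph1, an Hsp110 chaperone, at 54.6 ± 13.6 FPKM in knockout and 28.6 ± 1.58 FPKM in control (log2 change 0.88, limma adjusted p = 0.01). Hspb1, a small heat shock protein gene, was higher at days 0, 3, 5 and 10, with 8.19 ± 0.941 FPKM in knockout and 4.08 ± 1.08 FPKM in control at day 5 (SD, n = 3 each). The day 3 and day 10 calls of Hspb1 were lost after rescaling (limma adjusted p = 0.078 and 0.169).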
